A study of Mus musculus with 23 samples.

Results

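The genes described here were 5 inhibitors of cyclin-dependent kinases (CDKs), Cdkn2a, Cdkn2b, Cdkn2c and Cdkn2d of the INK4 family and Cdkn1b of the KIP family. They were chosen by gene name out of 23369 names in RNA-seq tables from mouse embryonic stem cells (ESCs), and all 5 passed the filter on low values that left 12997 genes for testing. The samples comprised 3 replicates labelled untreated and 3 replicates labelled as treated with 800 nM tamoxifen for 72 hr. The series text gives the dose in µM instead of nM. The labels call all 6 MS12 Kdm2b fl/fl ESCs, whereas by the methods MS12 cells were used to target the allele and the floxed ESCs were derived from crosses of the resulting mice with carriers of ERT2Cre, a tamoxifen-inducible Cre recombinase, at Rosa26. The untreated controls thus carried the floxed alleles and the recombinase as well. Tamoxifen allows Cre to remove the floxed exon, which holds the larger portion of the KDM2B ZF-CxxC domain, the segment of the protein that binds unmethylated CpG. The cells had been maintained on mitomycin C-treated embryonic fibroblasts and were settled overnight without feeders before use. The labels do not tell separately derived lines apart, and an effect of tamoxifen or Cre cannot be told apart here from an effect of the deletion. Groups follow the sample labels, whereas the deposited file names read the other way round for all 6 samples, which would leave the size of each fold change as it is and turn its sign.

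INK4 proteins bind CDK4 and CDK6 and keep them from pairing with D-type cyclins, whereas KIP proteins bind complexes of cyclins with CDKs and are best known for holding back CDK2. Active CDKs phosphorylate the retinoblastoma family of pocket proteins, which frees E2F factors to switch on genes for entry into S phase. Cdkn2a encodes both p16INK4A and, from an upstream first exon in another reading frame, p19ARF, which restrains MDM2 and thereby stabilises p53. Cdkn2a and Cdkn2b, which encodes p15INK4B, lie side by side and are a textbook target of polycomb repression, and KDM2B has been described as a repressor of this locus in fibroblasts. ESCs cycle quickly with little control of this kind in G1.

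Because the ZF-CxxC domain reads CpG, the sequence around the starts of the adjacent genes Cdkn2a and Cdkn2b is shown with every CpG in capitals. The windows hold 250 bases before and 50 bases after a start in RefSeq (GRCm38.p6, a later build than the mm9 of the expression tables) and are read 5′ to 3′ on the strand of the gene. The upstream Cdkn2a start, at chr4:89294570-89294869 on the minus strand, lies in a window with 45 CpG. The downstream Cdkn2a start, at chr4:89282143-89282442 on the minus strand, has 12 CpG, and the Cdkn2b start, at chr4:89310983-89311282 on the minus strand, has 18.
Cdkn2a upstream start: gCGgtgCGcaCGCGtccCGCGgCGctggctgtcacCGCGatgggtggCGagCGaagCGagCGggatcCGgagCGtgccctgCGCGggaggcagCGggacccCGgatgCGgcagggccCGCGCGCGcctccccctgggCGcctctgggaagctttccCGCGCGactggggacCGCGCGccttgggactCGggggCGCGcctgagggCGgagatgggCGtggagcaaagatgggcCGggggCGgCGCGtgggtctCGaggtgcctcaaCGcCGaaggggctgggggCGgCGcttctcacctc
Cdkn2a downstream start: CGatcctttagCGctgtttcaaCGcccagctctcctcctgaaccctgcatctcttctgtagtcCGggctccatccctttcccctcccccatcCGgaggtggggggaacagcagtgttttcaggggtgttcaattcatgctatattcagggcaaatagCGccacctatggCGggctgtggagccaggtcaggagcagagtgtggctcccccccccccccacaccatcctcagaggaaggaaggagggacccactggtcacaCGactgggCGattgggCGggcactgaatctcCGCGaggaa
Cdkn2b start: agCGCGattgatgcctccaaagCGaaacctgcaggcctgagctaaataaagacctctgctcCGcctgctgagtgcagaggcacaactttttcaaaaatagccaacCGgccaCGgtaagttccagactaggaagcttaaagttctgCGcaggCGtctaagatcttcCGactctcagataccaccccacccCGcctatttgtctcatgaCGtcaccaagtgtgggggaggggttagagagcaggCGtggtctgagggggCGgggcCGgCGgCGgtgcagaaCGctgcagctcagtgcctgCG
All 5 genes had a window in the table, 7 windows in all, and 5 of the 7 were CpG-rich by 2 limits, a GC content of 55% or more and CpG at 0.6 or more of the number expected from base composition, as were 30.3% of all 32851 windows. The downstream Cdkn2a window fell short in that observed over expected ratio, which was 0.44 against 1.04 at the upstream start. The other CpG-poor window was that of a second Cdkn2c start, with 8 CpG and a GC content of 44.0%, whereas the first Cdkn2c start had 33. Cdkn1b had 30 CpG and Cdkn2d had 22, and the median over all windows was 7. The GC box letters GGGCGG, on either strand, were found in 6 of the 7 windows and in 35.7% of all windows. The E2F-type letters TTTCGCGC and TTTGGCGC were in none of the 7 and in 0.323% and 0.514% of all windows, and TATAAA was in none of the 7 and in 13.6% of all. No KDM2B or polycomb binding was analysed here, so these windows are given as sequence only.

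All 5 inhibitors were transcribed in every sample, and the highest and the lowest of them were the same in all 6. FPKM (fragments relative to the length of the gene model and to the total mapped in a sample) is scaled per length and so allows levels of different genes to be compared. Cdkn2a was the highest and Cdkn2c the lowest of the 5 in all 6 samples. Cdkn2a made up 44.7% to 53.5% of the summed FPKM of the 5 genes in untreated samples and 38.6% to 49.7% in tamoxifen samples. Its mean level lay above that of 75.9% of all tested genes, whereas Cdkn1b lay above 56.2%, Cdkn2d above 51.7%, Cdkn2b above 45.8% and Cdkn2c above 12.3%. Cdkn2d ranked second in replicate 1 of both groups and Cdkn1b ranked second in the other 4 samples. Cdkn1b exceeded Cdkn2b in all 6 samples. Cdkn2d did not differ from Cdkn2b in mean level by more than its own SD in either group, nor from Cdkn1b among tamoxifen samples. Its rank changed with the replicate number and with the group. In replicates 2 and 3 it was below Cdkn2b in untreated and above it in tamoxifen samples. The level and rank of Cdkn2d given here rest on the summed rows described below. The row at its own locus, 6.28 FPKM in untreated and 9.21 in tamoxifen replicate 1, was below Cdkn1b at 11.7 and 10.9. That row was above Cdkn2b only in tamoxifen replicate 1, where Cdkn2b was at 6.87. In tamoxifen replicates 2 and 3 it was at 4.70 and 4.23 FPKM, below Cdkn2b at 6.11 and 6.39.

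**Figure D1:**
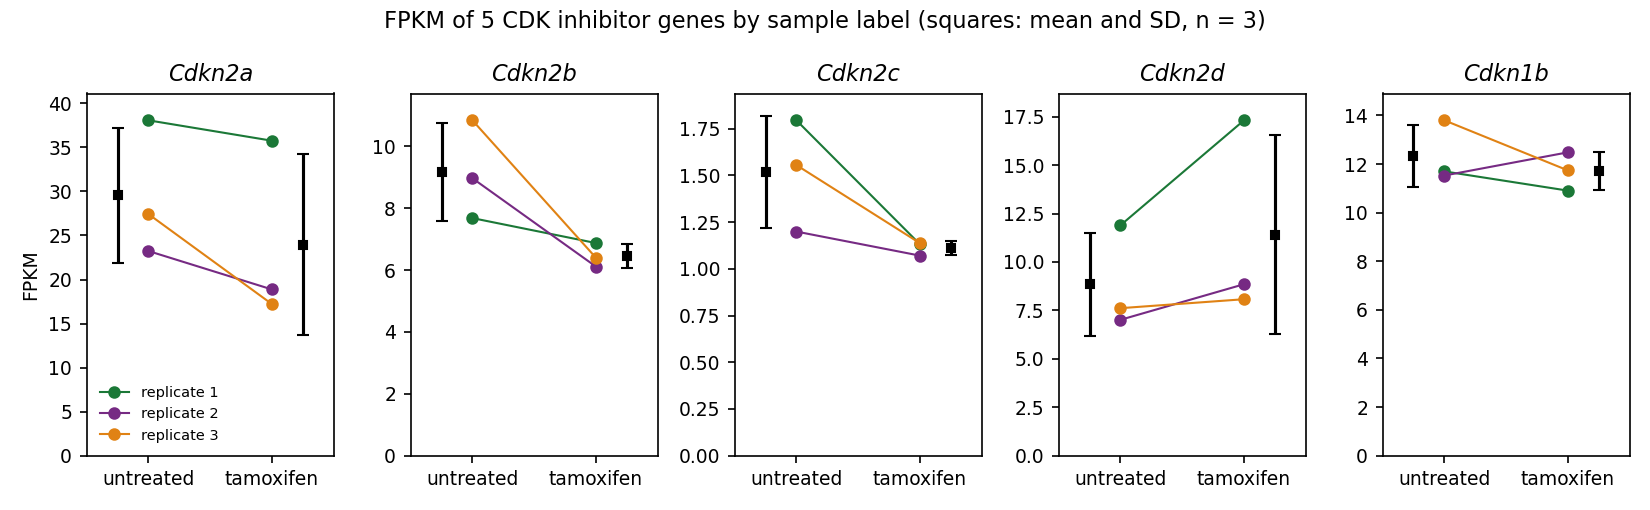
FPKM of the 5 CDK inhibitor genes in each RNA-seq sample, with a separate linear axis from 0 for each gene, lines joining samples of the same replicate number and black squares giving the mean and SD of 3 samples. The Cdkn2b and Cdkn2c values of the 3 samples labelled tamoxifen sit below those of all 3 labelled untreated, the lines of Cdkn2a all slope downward while the groups overlap, those of Cdkn2d all slope upward, and Cdkn1b stays between 10.9 and 13.8 FPKM.

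None of the 5 genes passed the test between the groups. With limma on log2(FPKM + 0.1) and Benjamini-Hochberg adjustment over all tested genes, 0 of 5 had an adjusted p under 0.05, and 0 of 5 had an unadjusted p under 0.05. Over all tested genes 0.0308% passed in either direction, 0.0231% higher and 0.00769% lower, and 4.79% had an unadjusted p under 0.05. Same-numbered samples of both groups varied jointly, and adding the number to the fit as a block made the errors smaller. This replicate block called 10.4% of all genes, 4.33% of them higher and 6.06% lower with tamoxifen as shares of the tested genes, and again 0 of the 5 inhibitors. In that fit Cdkn2a, Cdkn2b and Cdkn2d had an unadjusted p under 0.05, which 29.8% of all genes had. The median log2 fold change of all tested genes was −0.019, and the 5 inhibitors ranged from −0.49 to 0.32 with 4 of 5 below 0.

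Cdkn2b, which encodes p15INK4B and is a classical TGF-beta target, had the largest log2 fold change of the 5 in size in the fits with and without the block, though not under TPM scaling, where Cdkn2d was at 0.42 and Cdkn2b at −0.39, nor with some samples left out, such as tamoxifen replicate 1, where Cdkn2a was at −0.68 and Cdkn2b at −0.53. Its FPKM was 7.68, 8.97 and 10.8 in untreated replicates 1, 2 and 3 and 6.87, 6.11 and 6.39 in tamoxifen replicates 1, 2 and 3. Every tamoxifen sample was below every untreated one, an arrangement found in this direction for 5.4% of all tested genes. The means were 9.16 ± 1.59 and 6.46 ± 0.385 (SD, n = 3 each). The log2 fold change of tamoxifen over untreated was −0.49 (SE 0.22, 95% interval −0.99 to 0.023), with a limma adjusted p of 0.999. A two-sided exact permutation test gave p = 0.1, the smallest that 3 against 3 samples allow. With the replicate block the interval was −0.81 to −0.16 and the limma adjusted p was 0.0656. Confidence intervals that the quantification gave for single samples overlapped between the groups in replicate 1 and did not overlap in replicates 2 and 3. Without replicate 1 the blocked log2 fold change was −0.65 with a limma adjusted p of 0.00765, in a fit that called 7.27% of all genes lower. Without replicate 2 it was −0.46 (limma adjusted p = 0.263, 0.721% of all genes called lower) and without replicate 3 it was −0.35 (limma adjusted p = 0.263, 3.8% called lower), so that the call rested on leaving out replicate 1. The gene lies at chr4:88952198-88956941 in mm9.

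Cdkn2a, 11674 bp away at chr4:88920377-88940523, differed more between replicate numbers than between groups. The deposited tables hold 1 row for the gene, so p16INK4A and p19ARF transcripts cannot be told apart. Its FPKM was 38.1, 23.2 and 27.4 in untreated replicates 1, 2 and 3 and 35.8, 18.9 and 17.2 in tamoxifen replicates 1, 2 and 3. The groups overlapped because replicate 1 was high in both, 1.5-fold the mean of replicates 2 and 3 among untreated samples and 1.98-fold among tamoxifen samples. Within each replicate number the tamoxifen sample was the lower one, as it was for 28.2% of all tested genes. Means were 29.6 ± 7.65 and 23.9 ± 10.3 (SD, n = 3 each). The log2 fold change was −0.35 (SE 0.32, 95% interval −1.09 to 0.39, limma adjusted p = 0.999; exact permutation p = 0.4). With the replicate block the SE was 0.13, the interval −0.64 to −0.061 and the limma adjusted p 0.113. Without the block single samples moved the value widely, from −0.16 without untreated replicate 1 or without tamoxifen replicate 3 to −0.68 without tamoxifen replicate 1. Leaving out replicate 1 from both groups gave a blocked log2 fold change of −0.48 (limma adjusted p = 0.026), in a fit that called 7.27% of all genes lower. Leaving out replicate 2 gave −0.38 (limma adjusted p = 0.279) and leaving out replicate 3 gave −0.19 (limma adjusted p = 0.435). The Cdkn2a level was 2.53 to 4.96 times that of Cdkn2b in untreated samples and 2.69 to 5.20 times in tamoxifen samples, with replicate 1 highest in both groups.

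Of the genes on either side of the locus only Mtap was tested, and it did not pass either fit. Mtap, which encodes an enzyme of methionine salvage and lies 93382 bp from Cdkn2a, had a log2 fold change of 0.28 (limma adjusted p = 0.105 with the replicate block). Dmrta1, on the far side of Cdkn2b, stayed at or below 0.174 FPKM in all samples and was not tested.

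Cdkn2c, which encodes p18INK4C and lies at chr4:109333481-109337977, was the lowest of the family. Its FPKM was 1.79, 1.20 and 1.55 in untreated replicates 1, 2 and 3 and 1.13, 1.07 and 1.14 in tamoxifen replicates 1, 2 and 3. The groups did not overlap, with tamoxifen below untreated, as for 5.4% of all tested genes. The gap between the lowest untreated and the highest tamoxifen sample was small beside the untreated SD. The means were 1.52 ± 0.300 and 1.11 ± 0.0367 (SD, n = 3 each). The log2 fold change was −0.40 (SE 0.29, 95% interval −1.06 to 0.26, limma adjusted p = 0.999). The exact permutation p was 0.1, the smallest possible, which groups without overlap always give. With the replicate block the interval was −0.83 to 0.038 and the limma adjusted p was 0.199. In all 3 replicate numbers the confidence intervals that the quantification gave for the paired samples overlapped.

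Cdkn2d, which encodes p19INK4D, was the only member with a positive log2 fold change, and its value joined reads from near-identical copies. The tables hold 2 rows of this name, at chr9:21092908-21095653 and at chr9:123836860-123839607, which the GENCODE annotation of NCBIM37 gives as Cdkn2d and as the protein-coding gene Gm4694. The genomic spans are 99.9% identical, and the coding sequences of 498 bp differ at a single base, G211A, counted from the first base of the Cdkn2d coding sequence. The surrounding 41 bases are shown, with the differing base in capitals, from chr9:21093687-21093727 on the minus strand for Cdkn2d and chr9:123838788-123838828 on the plus strand for Gm4694.
Cdkn2d: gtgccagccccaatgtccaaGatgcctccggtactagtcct
Gm4694: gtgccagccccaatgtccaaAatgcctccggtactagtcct
The row at the second copy was 0.870 to 0.908 times the row at the Cdkn2d locus in all 6 samples. This ratio stayed within a narrow range while the summed level varied 2.47-fold, so the rows were not read as separate measurements of the loci and were summed.

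**Figure D2:**
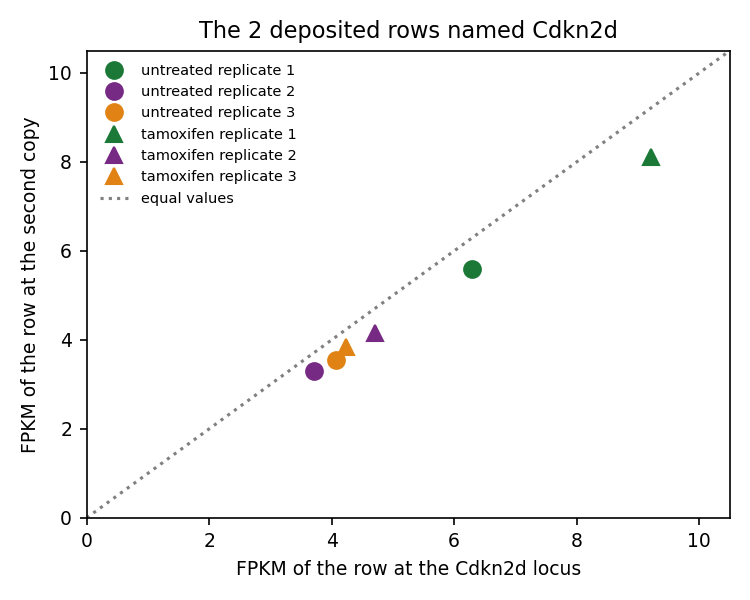
FPKM of the 2 deposited rows named Cdkn2d in each sample, the row at the Cdkn2d locus on the horizontal axis and the row at the second copy on the vertical axis, with a dotted line at equal values. The 6 samples lie along 1 line just under the dotted one, with ratios of 0.870 to 0.908, and replicate 1 of either group is farthest from the origin.

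Summed over both rows, Cdkn2d FPKM was 11.9, 7.01 and 7.61 in untreated replicates 1, 2 and 3 and 17.3, 8.85 and 8.08 in tamoxifen replicates 1, 2 and 3. The groups overlapped, and within each replicate number the tamoxifen sample was the higher one, as for 24.8% of all tested genes. Replicate 1 was again high, 1.63-fold the mean of replicates 2 and 3 among untreated samples and 2.05-fold among tamoxifen samples. Means were 8.84 ± 2.66 and 11.4 ± 5.12 (SD, n = 3 each), and the log2 fold change was 0.32 (SE 0.34, 95% interval −0.47 to 1.1, limma adjusted p = 0.999; exact permutation p = 0.5). With the replicate block the interval was 0.034 to 0.60 and the limma adjusted p was 0.133. The row at the Cdkn2d locus alone gave 0.31. Leaving out tamoxifen replicate 1, without the block, brought the log2 fold change to −0.024. Next to the Cdkn2d locus, Kri1, 494 bp away, was near 0 at −0.043 (limma adjusted p = 0.796 with the replicate block). Ap1m2, 4247 bp away, which encodes an adaptor subunit of epithelial cells, was lower with tamoxifen at −0.71 (limma adjusted p = 0.0104 with the replicate block, 0.999 without). Xcr1 and Ccr1, beside the second copy, stayed at or below 0.0226 FPKM in all samples and were not tested.

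Cdkn1b, which encodes p27KIP1 and lies at chr6:134870419-134875543, had the narrowest range of the 5, 1.27-fold between its lowest and highest sample. Its FPKM was 11.7, 11.5 and 13.8 in untreated replicates 1, 2 and 3 and 10.9, 12.5 and 11.7 in tamoxifen replicates 1, 2 and 3. The groups overlapped and the tamoxifen sample was lower in 2 of 3 replicate numbers. Means were 12.3 ± 1.27 and 11.7 ± 0.789 (SD, n = 3 each), with a log2 fold change of −0.073 (SE 0.20, limma adjusted p = 0.999; exact permutation p = 0.7). The 95% interval was −0.53 to 0.39 without and −0.33 to 0.19 with the replicate block. With 3 samples a group, a change of either sign within these bounds thus remains compatible with the values. Scaling the samples to TPM, which moved the median of all genes to 0.079, turned its sign, to 0.028. The nearest tested genes beside Cdkn2c and Cdkn1b, Faf1 and 1190002F15Rik, were both at 0.14 and did not pass either fit.

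Cdkn1a, another gene of the CIP/KIP family, was lower with tamoxifen in the blocked fit. It encodes p21CIP1, a p53 target, and its FPKM was 79.9, 73.7 and 82.3 in untreated replicates 1, 2 and 3 and 55.6, 52.5 and 49.5 in tamoxifen replicates 1, 2 and 3. The groups were well separated, with means of 78.6 ± 4.45 and 52.5 ± 3.05 (SD, n = 3 each), and the sample intervals of the quantification did not overlap in any replicate number. Groups without overlap in this direction were found for 5.4% of all tested genes. The log2 fold change of Cdkn1a was −0.58 (SE 0.20), with a limma adjusted p of 0.740 without and 0.0134 with the replicate block. It thus passed only in the blocked fit, which called 6.06% of all genes lower. Cdkn1c, an imprinted gene that encodes p57KIP2, was at 24.7, 32.5 and 28.2 FPKM in untreated replicates 1, 2 and 3 and 23.8, 34.0 and 27.8 in tamoxifen replicates 1, 2 and 3, values that differed little between the groups (blocked limma adjusted p = 0.983). Whether Cdkn1a differed from any of the 5 members in its response was not tested.

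**Figure D3:**
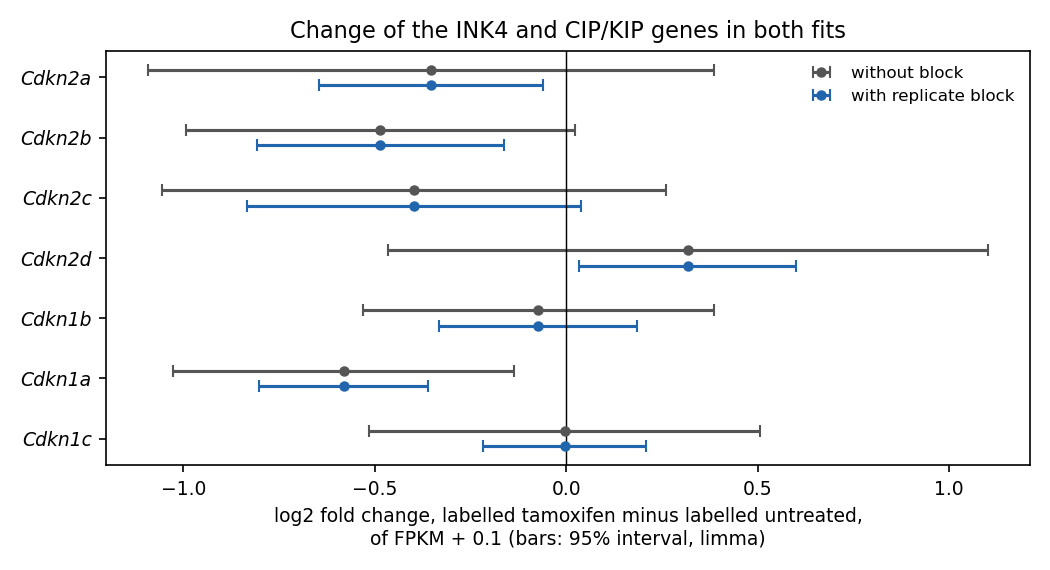
Log2 fold change of FPKM + 0.1, samples labelled tamoxifen minus samples labelled untreated, for the 5 members and for Cdkn1a and Cdkn1c, with bars giving the 95% interval from limma without and with the replicate block. Without the block all intervals of the 5 members include 0; with the block those of Cdkn2a, Cdkn2b and Cdkn2d do not, although no member passed after adjustment over all genes.

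The partners and targets of these inhibitors were read from lists of 79 genes, all of which passed the filter on low values. Without the block limma called 0 of 79, with 3 at an unadjusted p under 0.05, and with the replicate block it called 0 higher and 5 lower, with 26 at an unadjusted p under 0.05. The share called lower was thus near the 6.06% of all genes. The 5 were Cdkn1a, Ccnd2, Mdm2, Myc and Tgfb1, and quantile normalization with the block called 5 lower and 1 higher, Foxo1, against 4.51% and 4.29% of all genes (8.8% in either direction); Foxo1 is named after its value was seen.

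Among 10 CDKs and G1 cyclins, the kinases bound by INK4 proteins did not pass either fit. Cdk4 was at 264 ± 27.2 FPKM in untreated and 298 ± 30.5 in tamoxifen samples, far above Cdk6 at 6.18 ± 1.43 and 4.96 ± 0.412 (SD, n = 3 each). Cdk2, the kinase held by p27KIP1, was at 36.2 ± 2.71 and 39.8 ± 2.52 FPKM. Of the D-type cyclins, Ccnd2 was at 5.41, 14.0 and 18.1 FPKM in untreated replicates 1, 2 and 3 and at 2.35, 9.46 and 12.1 in tamoxifen replicates 1, 2 and 3. It was lower with tamoxifen in every replicate number, as were 28.2% of all tested genes. Its log2 fold change was −0.77 with a limma adjusted p of 0.0203 with the replicate block (0.999 without), and it was low in replicate 1, where Cdkn2a was high. Ccnd1 had a log2 fold change of −0.44 (blocked limma adjusted p = 0.0718) and Ccnd3 of 0.26 (blocked limma adjusted p = 0.140), and Ccne1, a cyclin partner of CDK2, was at 95.4 ± 7.75 and 103.7 ± 11.9 FPKM (SD, n = 3 each).

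Downstream, none of 13 pocket protein and E2F/DP genes passed in the blocked fit, which called 10.4% of all genes. Their median log2 fold change was −0.087. Rbl2, which encodes the pocket protein p130, is listed at 0 in tamoxifen replicate 1, and is named here for that reason. The 15 genes of the G1/S transition that E2F factors are known to drive had log2 fold changes of 0.047 to 0.32 with a median of 0.16, all 15 above 0, although none passed either fit. Across all tested genes 47.2% were above 0. With quantile normalization 13 of the 15 were above 0, as were 51.9% of all genes, and with TPM scaling all 15 were, as were 60.0% of all genes.

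In a list of genes that act around p19ARF and p53, upstream or downstream, 2 of 7 were lower with tamoxifen in the blocked fit, which called 6.06% of all genes lower. Mdm2, which encodes the ubiquitin ligase that p19ARF binds and is itself a p53 target, was at 94.4 ± 18.1 FPKM in untreated and 56.8 ± 5.46 in tamoxifen samples (SD, n = 3 each), a log2 fold change of −0.72 (limma adjusted p = 0.00706 with and 0.665 without the replicate block). Myc, which encodes a growth regulator known to induce Arf, was at 19.0 ± 9.46 and 10.6 ± 5.98 FPKM, a log2 fold change of −0.87 (limma adjusted p = 0.00489 with and 0.999 without the replicate block). None of 9 genes for p27KIP1 turnover and localisation passed in the blocked fit, which called 10.4% of all genes in either direction. Skp2, which encodes the subunit of the ubiquitin ligase that recognises p27KIP1, had a log2 fold change of 0.31 (blocked limma adjusted p = 0.0852) and is named after its value was seen.

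Upstream, none of 16 polycomb and other known regulators of the Cdkn2a and Cdkn2b locus passed in the blocked fit. That fit called 10.4% of all genes, and the median log2 fold change of the 16 was −0.14. Ezh2, which encodes the methyltransferase of PRC2 and is named after its value was seen, was the nearest at 0.36 with a blocked limma adjusted p of 0.0507. With median-ratio scaling added to the block it did pass (limma adjusted p = 0.0419), in a fit that called 507 of all tested genes higher. Of 8 FOXO and TGF-beta genes that act on Cdkn1b and Cdkn2b, Tgfb1, which encodes a ligand that induces Cdkn2b, was at 9.29, 8.89 and 7.56 FPKM in untreated replicates 1, 2 and 3 and 4.95, 5.86 and 4.12 in tamoxifen replicates 1, 2 and 3. The groups did not overlap, an arrangement found in this direction for 5.4% of all tested genes. The log2 fold change was −0.78 with a limma adjusted p of 0.0111 with the replicate block and 0.619 without. Kdm2b itself was at 27, 21.5 and 27.7 FPKM in untreated replicates 1, 2 and 3 and 19.9, 21.9 and 25.0 in tamoxifen replicates 1, 2 and 3. The groups overlapped, and since this value covers the whole gene and not the floxed exon, it does not check the labels.

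**Figure D4:**
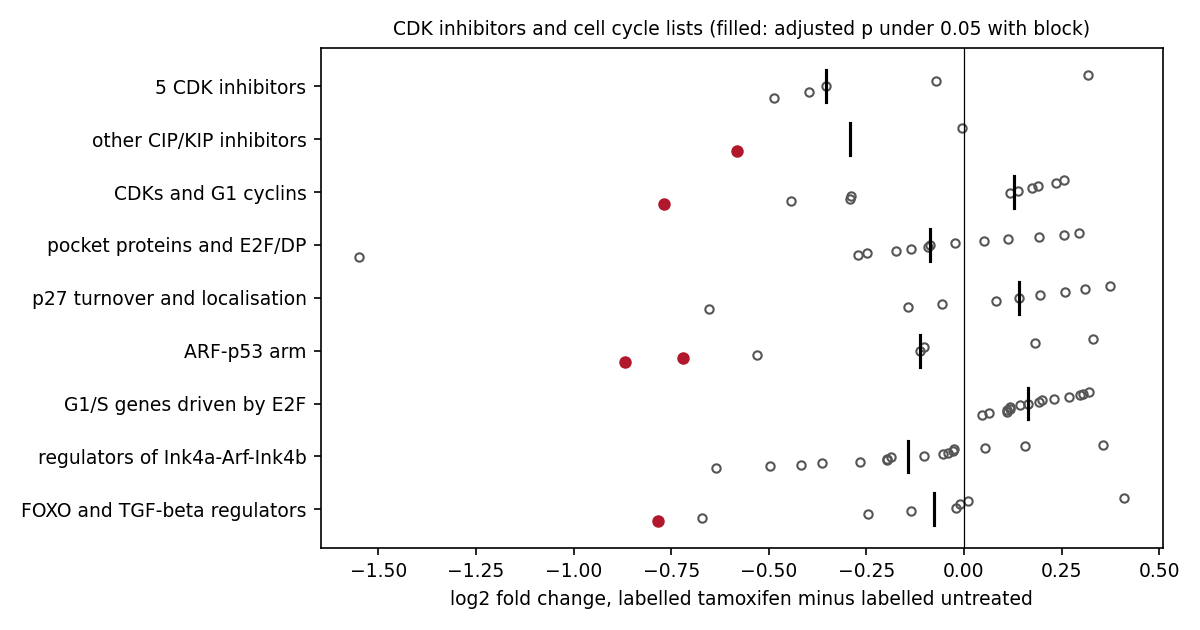
Log2 fold change, samples labelled tamoxifen minus samples labelled untreated, of the 5 members and of each gene in the cell cycle lists, with a vertical bar at the median of each list and filled symbols for genes with a blocked limma adjusted p under 0.05. The filled symbols are Cdkn1a, Ccnd2, Mdm2, Myc and Tgfb1, all left of 0, the G1/S genes sit between 0.047 and 0.32, and the lowest open symbol is Rbl2, listed at 0 in tamoxifen replicate 1.

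Genes with the most similar profiles were found by the root mean square difference of log2(FPKM + 0.1) over the 6 samples after centring each gene. For Cdkn2d the nearest were Rpl10a, a ribosomal protein gene, at 0.0373 and Dppa5a, an ESC marker, at 0.0430. Those nearest to Cdkn2a were Ethe1 at 0.0861 and Sfn at 0.0925, and those nearest to Cdkn2b were Cltb at 0.0780 and Wdr60 at 0.0967. Dusp2 at 0.0526 and Spsb1 at 0.0574 were nearest to Cdkn2c, and Tnfaip1 at 0.0293 and Rad52 at 0.0333 to Cdkn1b. The members' own root mean square around their means was 0.429 for Cdkn2a, 0.286 for Cdkn2b and 0.256 for Cdkn2c. It was 0.445 for Cdkn2d and 0.106 for Cdkn1b, so the distances do not rank likeness between members. With 6 samples and 12997 genes some close profiles are found for any gene, and these are given as a description.

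Embryonic fibroblasts transcribe Cdkn2a and Cdkn2b, so markers of the feeder layer were read beside them. The summed FPKM of 12 fibroblast markers was 67.5, 146 and 154 in untreated replicates 1, 2 and 3 and 102, 132 and 119 in tamoxifen replicates 1, 2 and 3. The groups overlapped, and none of the 10 markers that could be tested passed in the blocked fit, which called 10.4% of all genes. The sample with the highest Cdkn2a level, untreated replicate 1, had the lowest fibroblast sum. The sample with the highest Cdkn2b level, untreated replicate 3, had the highest sum, of which Acta2 alone gave 66.9 FPKM. Among untreated samples Col1a1, Col1a2 and Thy1 were highest in replicate 2, and Col3a1 and Pdgfrb in replicate 3. The order of the sum thus did not hold for every fibroblast marker. Among tamoxifen samples Cdkn2b was highest in replicate 1, where the sum of that group was lowest. Lum and Fap were at 0 in some samples and none of the 12 was at 0 in all, and the part of feeder RNA in the levels of the inhibitors was not tested. The sum of 10 ESC markers was 2892 to 4069 in untreated and 3210 to 5614 in tamoxifen samples, with the highest value of each group in replicate 1. Dppa5a alone gave 2221 FPKM of the sum in untreated and 3534 in tamoxifen replicate 1. Klf4, Tdgf1 and Tfcp2l1 were lowest in replicate 1 among tamoxifen samples, so the sum does not speak for every marker. The sum of 8 markers of differentiating cells was 26.4 to 34.8 in untreated and 17.8 to 21 in tamoxifen samples without overlap. Among single tested genes 5.4% were without overlap in this direction. Of the 6 markers that could be tested, 4 were lower in the blocked fit, Sox1, Nes, Gata6 and Pax6, against 6.06% of all genes. The other 2, T (brachyury) and Fgf5, had log2 fold changes of 0.38 and 0.29 and did not pass (blocked limma adjusted p = 0.427 and 0.260). The summed level was on the same side as the Cdkn2b and Cdkn2c values, and its part in them was not tested. In bulk RNA fewer cells of a type and less RNA per cell cannot be told apart.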

How the data were processed

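PolyA+ RNA was sequenced as directional paired-end libraries in 3 samples per group. The tables that the authors deposited give FPKM for each gene row, its lower and upper confidence bounds and a quantification status. The submitters' notes name mm9, TopHat2 0.5 and Cufflinks and Cuffdiff 2.1.1, and the methods name refGene models. The strand setting of the counting is not given in the sources used here. ChIP-seq samples were not analysed here.

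Rows of 1 gene name were summed, and 6 names with a failed quantification were left out. Genes at 0.5 FPKM or more in at least 3 of 6 samples (12997) were tested two-sided by limma 3.58.1 (R 4.3.3, eBayes with a trend) after transformation to log2(FPKM + 0.1), and Benjamini-Hochberg adjusted p under 0.05 counted as a call. Fold changes on this scale understate those of low genes. Same-numbered samples correlated in their deviations from the group means (r = 0.544, 0.605 and 0.506; other pairs −0.379 to −0.105), so that the replicate numbers, taken from the titles, were treated as pairs. The methods call the samples biological triplicates, and the sources used here do not say how the replicates were separated.

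Read counts are not in the tables. The modal ratio of low values to those of untreated replicate 1, shared by 22.2% to 24.3% of 870 to 1002 genes, gave relative depths of 0.651 to 0.948 for the other 5 samples, and no interval from counts is given. The genes, lists and tests were chosen with earlier results of these data known. Named beside the 5 genes are other CIP/KIP genes, Kdm2b, bound kinases and cyclins, up to 3 called genes per list, nearest neighbours, and the 2 most similar profiles. Alternatives covered the pseudocount, scaling, filter, row summing, trend, replicate block and left-out samples, and using only the Cdkn2d locus row was added after seeing the data. Sequences are from RefSeq (GRCm38.p6 promoters) and NCBIM37 with GENCODE annotation. Python 3.11.15 was used for other steps.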

Additional observations from a re-analysis of the deposited data

How the results depend on the processing

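Cdkn2a, Cdkn2b and Cdkn2c kept a negative log2 fold change in all 21 alternatives each, from −0.68 to −0.16, −0.65 to −0.35 and −0.55 to −0.25. Not all alternatives could move a log2 fold change. With all samples kept, adding the block, changing the filter or dropping the trend left it as it was. So did the row choice for members other than Cdkn2d, and the sign under these settings was fixed beforehand. Cdkn2d was positive in 22 of 23 (up to 0.55) and was −0.0239 without tamoxifen replicate 1. Cdkn1b was negative in 18 of 21 (down to −0.17), and was 0.0278 with TPM scaling, 0.00964 without untreated replicate 3 (−0.12 to 0.00964 over the left-out samples) and 0.00683 without replicate 3 with the replicate block. Limma adjusted p ranged from 0.026 to 1.0 for Cdkn2a and from 0.00765 to 1.0 for Cdkn2b, and the lowest was 0.182, 0.102 and 0.544 for Cdkn2c, Cdkn2d and Cdkn1b. With the replicate block and without replicate 1, 2 of the 5 inhibitors passed, Cdkn2a at −0.48 and Cdkn2b at −0.65. That fit called 7.27% of all genes lower, against 0.721% without replicate 2 and 3.8% without replicate 3. Leaving out a replicate otherwise gave 0 of the 5, and the cause was not tested. The block and the other alternatives changed no call of a member beyond these.

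Over all tested genes 3 were higher and 1 lower without the block. With the replicate block there were 563 higher and 787 lower, with quantile normalization added 558 and 586, and with median-ratio scaling added 507 and 622. Without a filter there were 1 and 0, with at least 1 FPKM in all 6 samples 0 and 0, and with a pseudocount of 1 there were 0 lower. Leaving out 1 sample gave 0 to 5 higher and 0 to 7 lower, and leaving out 1 replicate number with the block gave 67 to 691 and 94 to 952, lowest without replicate 2 and 381 and 498 without replicate 3. In the cell cycle lists the block called 5 lower, and with quantile normalization 5 lower and 1 higher. With median-ratio scaling and the block, Ezh2 passed as higher. Having 3 samples a group, the unknown read numbers and the undivided Cdkn2a row limits what these values can resolve.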
